A study of Mus musculus with 15 samples.

Results

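The genes described here are 10 regulators and surface proteins of blood stem and progenitor cells that recur in studies of leukaemia, namely Cd34, Myb, Myc, Mycn, Mecom, Erg, Hlf, Prom1, Bahcc1 and Flt3. They were taken by symbol from the 53379 genes of an RNA-seq table of MLL-ENL-transformed mouse fetal liver cells, in which each symbol matched 1 row. MLL-ENL is a leukaemic fusion protein. A retrovirus carrying it was put into fetal liver stem and progenitor cells, and single transformed colonies were expanded after G418 selection. 5 groups of 3 libraries were compared. In clone C1 these were the WT cells, the dKO cells (Cebpa KO, Cebpb KO) and the dKO-LAP* cells, and in clone C2 the WT and the dKO cells. WT cells had the label wild-type and no exogenous expression, and according to the study they carry floxed Cebpa and Cebpb alleles that were not deleted. According to the study, parental clones were treated with a cell-permeable Cre recombinase, partly deleted clones were pooled, and the pool was treated again. dKO cells were then picked as colonies. Whether the WT cells of a clone are the direct parent of its dKO cells is not given. dKO cells also carried a retroviral vector for GFP, so the deletion and the GFP vector cannot be told apart. dKO-LAP* cells were dKO cells in which a retroviral GFP vector expressed LAP*, the longest isoform of C/EBPβ, in its rat form. All groups carried MLL-ENL and grew in IMDM with 10% FCS and IL-3 at 10 ng/ml. The clones came from different mice. Each dKO line is 1 clone that survived the deletion, and the 3 RNA samples of a line were taken at different times, so the error given is the spread between samples of 1 line, which may be technical.

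C/EBPα and C/EBPβ are basic leucine zipper transcription factors of the granulocyte and macrophage lineages. The 10 genes lie at several levels of the programme that keeps early blood cells immature. CD34, a sialomucin, and CD133, the membrane glycoprotein encoded by Prom1, are used to isolate human stem and progenitor cells, and FLT3 is the receptor tyrosine kinase for FLT3 ligand and is often mutated in acute myeloid leukaemia. MYB, ERG, MECOM and HLF are transcription factors of stem and progenitor cells, MYC and MYCN drive growth as dimers with MAX, and BAHCC1 is a chromatin protein with a BAH domain that reads the repressive mark on lysine 27 of histone H3. The genes were chosen by their measured levels in these same libraries, with earlier results known. Their own differences and calls are therefore a description, given without p-values and not as evidence. The lists of other genes were also drawn up with those results known, so their counts and p-values describe these libraries and are not independent evidence.

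Values are normalized reads, a read count divided by the size factor of its library. Reads on genes numbered 9212237 to 13613500 per library (median 11885279), every library correlated with the others of its group at a Pearson r of at least 0.9805, and none stood apart. The deleted genes followed the labels. Cebpa had 902.8 to 2266.83 normalized reads in the 6 WT libraries, was listed at 0 in the 6 dKO libraries and had at most 0.92 in dKO-LAP* cells. Cebpb had 1353.38 to 1633.54 in WT libraries, was listed at 0 in dKO libraries and had 2537.5 to 4215.91 in dKO-LAP* libraries, where reads of the rat transgene and of the mouse gene cannot be told apart. All 10 markers of myeloid progenitors, such as Mpo and Elane, were above 3 reads in every group. Of 6 endothelial markers only Pecam1 was, with Cdh5 and Emcn at 0 in all libraries. Endothelium also carries CD34 and ERG, and its part in their levels was not tested. In bulk RNA fewer cells of a type and less RNA per cell cannot be told apart.

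Promoter sequences were available in RefSeq (build GRCm38.p6) for 9 of the 10 genes, and Myc had no entry. Shown here are the 250 bases before the start of Cd34, Bahcc1, Flt3 and Erg. The first 3 lay near 0 in WT cells and higher in dKO cells of both clones, Flt3 at a much lower level than the others. The window of Erg held a match to the C/EBP motif TTGCNNAA, written in capitals. Each window is given 5′ to 3′ on the strand of its gene.
Cd34, chr1:194938571-194938820, plus strand: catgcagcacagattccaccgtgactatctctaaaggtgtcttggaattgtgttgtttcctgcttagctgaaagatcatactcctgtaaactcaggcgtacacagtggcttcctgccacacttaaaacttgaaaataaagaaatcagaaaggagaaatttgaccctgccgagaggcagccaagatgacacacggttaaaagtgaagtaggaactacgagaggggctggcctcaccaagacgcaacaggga
Bahcc1, chr11:120232697-120232946, plus strand: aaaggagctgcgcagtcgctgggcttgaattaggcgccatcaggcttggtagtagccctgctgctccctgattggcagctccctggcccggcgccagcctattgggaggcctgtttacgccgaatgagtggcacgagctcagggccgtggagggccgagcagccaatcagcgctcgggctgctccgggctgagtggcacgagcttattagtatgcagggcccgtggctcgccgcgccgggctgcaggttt
Flt3, chr5:147400490-147400739, minus strand: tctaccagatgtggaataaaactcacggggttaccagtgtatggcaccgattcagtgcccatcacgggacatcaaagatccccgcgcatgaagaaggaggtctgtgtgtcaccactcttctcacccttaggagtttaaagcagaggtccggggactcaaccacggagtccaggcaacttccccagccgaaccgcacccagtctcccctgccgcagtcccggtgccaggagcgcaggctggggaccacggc
Erg, chr16:95586594-95586843, minus strand: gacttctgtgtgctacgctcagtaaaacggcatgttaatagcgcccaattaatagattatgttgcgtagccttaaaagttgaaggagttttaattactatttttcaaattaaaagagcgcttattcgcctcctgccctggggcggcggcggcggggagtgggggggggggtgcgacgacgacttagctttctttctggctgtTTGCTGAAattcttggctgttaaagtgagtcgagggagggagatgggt

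The 4 windows differed in base composition. Bahcc1 had 65.2% G and C with 19 CpG, Flt3 59.2% with 13, Erg 48.8% with 14 and Cd34 46.4% with 6, against medians of 52.4% and 6 CpG over the 32536 windows of all genes. The C/EBP motif was searched on both strands in all windows of the 9 genes. It matched 48 bases before the start in the Erg window shown and 187 bases before the start in a second Erg window, that of another transcript start, and in no other window of these genes, against 9.57% of all windows. The ETS motif CCGGAAGT, found in 2.9% of all windows, the E-box CACGTG, found in 6.04%, and the MYB motifs CAGTTG and CCGTTG, found in 11.1% and 4.06%, did not occur in these genes' windows. The RUNX motif TGTGGT, found in 14.0%, occurred once, 24 bases before the start in 1 of the Prom1 windows. A match is a string of letters and no evidence of binding.

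A gene entered the fit if 3 or more libraries held 10 or more normalized reads of it, which was so for 8 of the 10 genes but not for Mecom and Hlf. Cd34, Mycn, Bahcc1 and Flt3 passed this filter only through the dKO and dKO-LAP* libraries, so they had to differ from WT cells. In clone C1, 7 of the 8 fitted genes were called higher in dKO than in WT cells (limma on log2 normalized reads plus 1, Benjamini-Hochberg adjusted p under 0.05 over 12673 genes), against 17.1% of all genes fitted. The gene without a call was Myc. In clone C2 all 8 fitted genes were called higher, against 17.4% of all genes, and 7 were called higher in both clones, against 5.69%. These shares repeat the way the genes were chosen and are given as a description only. The calls of all genes split by direction as 2170 higher and 2516 lower in clone C1, and as 2681 higher and 2052 lower after quantile normalization. The log2 differences ran from -0.03 for Myc in clone C1 to 11.77 for Cd34 in clone C2.

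**Figure D1:**
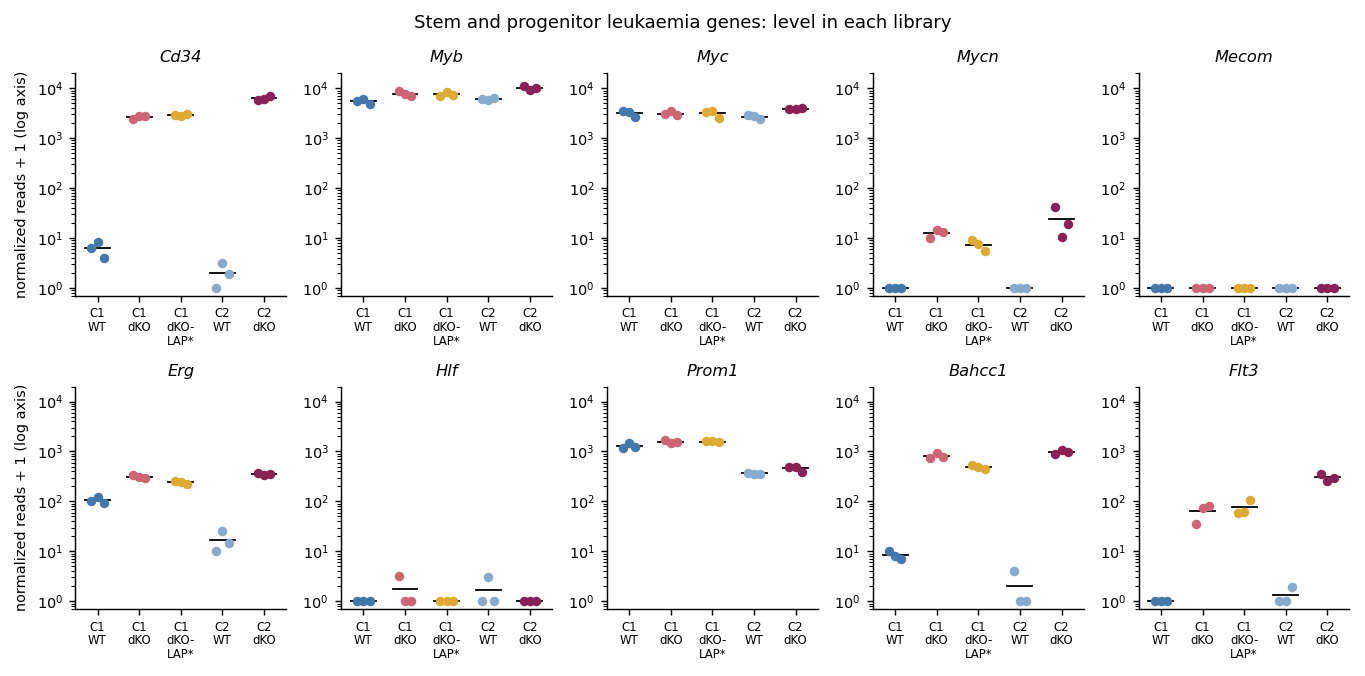
Normalized reads of the 10 genes in each of the 15 libraries, 1 panel per gene, on a log axis of the value plus 1. Points are libraries and black lines are the means of the 3 libraries of a group. Cd34, Bahcc1, Flt3 and Mycn lie near or at 0 in WT cells of both clones and above it in all dKO and dKO-LAP* libraries, Myc and Prom1 are high everywhere, and Mecom and Hlf lie at or near 0 everywhere.

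Among the surface proteins, Cd34 (chromosome 1, 194938819 to 194961279 on mm10, plus strand) reached the highest level per kilobase of exon in dKO cells. Its normalized reads were 5.35, 7.22 and 3.06 in the WT libraries of clone C1 and 2393.02, 2744.97 and 2729.76 in the dKO libraries, a 503-fold higher mean (log2 difference 8.78, SE 0.30). In clone C2 they were 0, 2.10 and 0.92 in WT cells and 5934.89, 6184.11 and 6975.20 in dKO cells. No WT library came near a dKO library in either clone. Since no WT library of clone C2 had more than 3 reads, the fold there is a lower bound, at least 2023-fold higher, taken against a floor of 3 reads per library that covers counting error only. Because Cd34 was so low in WT cells, its log2 difference in clone C2 (11.77, SE 0.30) depended on the value added before taking logs and ran from 10.06 to 13.35 over 8 alternatives. The level itself also separated the clones, with dKO cells of clone C2 at 6365 ± 543 (SD, n = 3) and those of clone C1 at 2623 ± 199 (SD, n = 3) normalized reads.

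Flt3 (chromosome 5, 147330741 to 147400489, minus strand) had the same on-or-off pattern at a much lower level. It was listed at 0 in the 3 WT libraries of clone C1 and in replicates 1 and 2 of clone C2, whose replicate 3 held 0.92. In dKO cells it had 33.98, 72.37 and 80.31 normalized reads in clone C1 and 351.51, 260.51 and 299.26 in clone C2. The means were at least 15.5-fold and at least 96.6-fold higher than the floor. dKO replicate 1 of clone C1 was the lowest of its group, yet above every WT library. Flt3l, which encodes the ligand of FLT3, was measured at 32.08 to 92.9 normalized reads in all libraries, with log2 differences of -0.18 (SE 0.25, adjusted p = 0.61, limma) in clone C1 and -0.29 (adjusted p = 0.39, limma) in clone C2.

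The receptor tyrosine kinases of the same class as FLT3 did not move alike. Kit was called higher in dKO cells of both clones, Csf1r was called lower in clone C1, and Pdgfra, with at most 3.15 normalized reads in any library, was not fitted. Kit, the receptor of stem cell factor, went from a mean of 999 to 2268 normalized reads in clone C1 (2.27-fold, log2 difference 1.20, SE 0.12, adjusted p = 8e-07, limma) and from 307 to 1376 in clone C2 (4.49-fold, 2.16 on the log2 scale, adjusted p = 1.1e-09, limma). Pdgfrb, a receptor of platelet-derived growth factor, was far lower, at 6.69 to 12.63 normalized reads in WT and 45.3 to 58.25 in dKO libraries of clone C1 (log2 difference 2.32). In clone C2 it was at 1.83 to 3.98 in WT and 88.92 to 106.92 in dKO libraries (log2 difference 4.68). No p is given for these differences, since Pdgfrb would not have passed the filter on WT libraries alone. Csf1r, the receptor of macrophage colony-stimulating factor, fell in clone C1 from a mean of 3237 to 920.5 normalized reads (log2 difference -1.83, SE 0.22, adjusted p = 9.4e-06, limma). In clone C2 it was far lower, at 35.85 to 65.05 in WT and 46.66 to 68.65 in dKO libraries, which overlapped (0.43, adjusted p = 0.15, limma).

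Prom1 (chromosome 5, 43993620 to 44102032, minus strand) did not follow Cd34, although both products mark stem cells. It was already high in WT cells, with 1197.51, 1489.99 and 1249.25 normalized reads in clone C1 and 378.43, 358.58 and 355.46 in clone C2. The dKO libraries held 1696.52, 1499.92 and 1549.78 in clone C1 and 485.42, 498.66 and 384.00 in clone C2. The groups did not overlap within a clone, but the highest WT library of clone C1 lay within 10 normalized reads of its lowest dKO library. The mean was 1.21-fold higher in clone C1 (log2 difference 0.27, SE 0.10) and 1.25-fold higher in clone C2 (0.31). The call rested on single libraries. In clone C1 it was lost when any 1 library was left out, except WT replicate 2, with differences of 0.21 to 0.31 where it was lost, and also with no filter on low values and with only the groups compared (0.27 in both). In clone C2 it was lost without WT replicate 2 or 3 or dKO replicate 1 or 2 (0.25 to 0.30). For Prom1 the gap between the clones exceeded the gap between genotypes, since WT cells of clone C2 were 3.60-fold below those of clone C1 (log2 difference -1.84).

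Among the transcription factors, Myb and Erg were present in every library and higher in dKO cells. Myb (chromosome 10, 21124935 to 21160984, minus strand) had 5480.46, 5993.31 and 4821.72 normalized reads in WT and 8769.11, 7566.75 and 7032.24 in dKO libraries of clone C1. In clone C2 it had 6180.32, 5918.70 and 6265.46 in WT and 10933.46, 9025.38 and 10058.97 in dKO libraries. The dKO libraries all lay above the WT libraries of their clone, by 1.43-fold (log2 difference 0.52, SE 0.10) and 1.64-fold (0.70). The antisense gene Gm26577 shares 559 exon bases with Myb and had at most 40.31 normalized reads in any library. Whether the counting used the strand is not given in the sources used here.

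Erg (chromosome 16, 95359169 to 95586593, minus strand), an ETS factor, ended at a similar level in the dKO cells of both clones but started from different ones. In clone C1 it had 99.01, 120.86 and 92.73 normalized reads in WT and 334.09, 301.03 and 289.48 in dKO libraries. In clone C2 it had 8.96, 24.12 and 13.74 in WT and 375.57, 331.47 and 358.25 in dKO libraries, and the dKO libraries of the clones overlapped. The mean was 2.96-fold higher in clone C1 (log2 difference 1.56, SE 0.23) and 22.8-fold higher in clone C2 (4.52). Ets1, a relative of Erg, rose in clone C1 by 0.75 on the log2 scale (SE 0.12, adjusted p = 0.00015, limma) and was lower in clone C2 by a margin at the edge of the threshold (-0.32, adjusted p = 0.049, limma), with overlapping libraries. The call in clone C2 was lost under 7 of 8 alternatives and without WT replicate 2 or 3 or dKO replicate 2 or 3 (-0.23 to -0.29). The difference between the clones itself was -1.07 (SE 0.17, adjusted p = 0.00024, limma).

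Mecom and Hlf, factors tied to the most immature stem cells, were not detected at a level that could be compared. Mecom (chromosome 3, 29951296 to 30548008, minus strand) had 0 reads in all 15 libraries, which allows at most 2.65 to 4.01 normalized reads per library. Its relative Prdm16 was also at 0 throughout. Hlf (chromosome 11, 90336536 to 90390895, minus strand) had 2 reads in dKO replicate 1 of clone C1 and 2 in WT replicate 2 of clone C2, and 0 in the other libraries. A difference between groups in either gene was not detectable at this depth.

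The other PAR basic leucine zipper factors of the Hlf family were expressed. Dbp rose in clone C1 by 0.89 on the log2 scale (SE 0.28, adjusted p = 0.019, limma) and in clone C2 by 1.00 (adjusted p = 0.01, limma), from means of 25.9 and 30.0 to 46.5 and 60.6 normalized reads. Its call in clone C1 was lost without WT replicate 3 (0.56, adjusted p = 0.093), dKO replicate 1 (adjusted p = 0.057) or dKO replicate 2 (adjusted p = 0.051). Tef rose by 0.77 (SE 0.19, adjusted p = 0.0046, limma) and 0.55 (adjusted p = 0.031, limma), the latter lost without WT replicate 1 or 3 or dKO replicate 1 or 3, with adjusted p from 0.063 to 0.13. Nfil3, a repressor that competes for the sites of this family, fell by 0.81 on the log2 scale (SE 0.23, adjusted p = 0.011, limma) and 0.76 (adjusted p = 0.016, limma). Its call was lost in clone C1 without WT replicate 1 (adjusted p = 0.069), and in clone C2 without WT replicate 2 or 3 or dKO replicate 1 (adjusted p from 0.062 to 0.099).

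Together, the list of relatives and partners of the 10 genes held 18 genes, of which 13 were fitted. Pdgfrb is 1 of those called higher in each clone, although it would not have passed the filter on WT libraries alone. In clone C1 6 were called higher, 5 of them besides Pdgfrb, and 3 lower, where 17.1% of all genes were called higher and 19.9% lower. In clone C2 6 were called higher, 5 of them besides Pdgfrb, and 4 lower, where 17.4% were called higher and 20.1% lower. The count that fell in clone C2 was 2 to 3 when 1 library was left out, with 2 without WT replicate 2 or 3 or dKO replicate 1 or 3, and the count called higher was 4 without dKO replicate 1 or 3. The count that fell in clone C1 was 2 without WT replicate 1. Of these genes, 4 rose in both clones (Dbp, Tef, Kit and Tnrc18), where 5.69% of all genes were called higher in both, 1 fell in both (Nfil3) and 1 was called in opposite directions (Ets1). The median log2 difference was 0.42 in clone C1 and 0.37 in clone C2, beside -0.01 and -0.03 over all genes fitted.

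**Figure D2:**
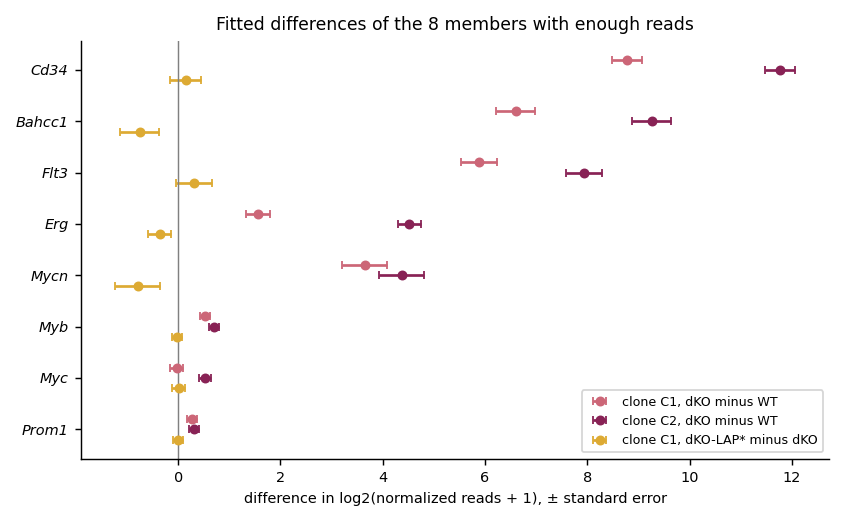
Log2 differences of the 8 fitted genes on the scale of log2 normalized reads plus 1, for dKO minus WT cells in clone C1, dKO minus WT cells in clone C2 and dKO-LAP* minus dKO cells in clone C1. Bars are standard errors of the fit over 15 libraries. In clone C2 all 8 points lie above 0, in clone C1 Myc lies at 0, and the dKO-LAP* differences lie between -0.79 and 0.31.

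Myc and Mycn differed in level and in pattern. Myc (chromosome 15, 61985391 to 61990374, plus strand) had 3490.85, 3314.59 and 2701.27 normalized reads in WT and 2990.99, 3440.38 and 2856.85 in dKO libraries of clone C1, which overlapped (log2 difference -0.03, SE 0.12). In clone C2 it had 2882.03, 2806.80 and 2369.13 in WT and 3776.65, 3801.64 and 4000.85 in dKO libraries, which did not overlap (1.44-fold higher, 0.53). Mycn (chromosome 12, 12936093 to 12941914, minus strand) was listed at 0 in all 6 WT libraries. In dKO libraries it had 9.06, 13.64 and 12.36 normalized reads in clone C1, at least 2.91-fold above the floor, and 41.85, 9.72 and 18.23 in clone C2, at least 7.40-fold above it, with replicate 1 well above the other two and a bound of 4.44-fold without it. Per kilobase of exon, Mycn made up 0.249% to 0.356% of the sum of Myc and Mycn in dKO libraries of clone C1 and 0.210% to 0.906% in those of clone C2. Nearly all RNA of the pair was thus Myc in every group.

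The MAX network holds the partners and antagonists of MYC. Of 11 of its genes 10 were fitted, and in clone C1 1 rose and 2 fell (Mga and Mlx), while in clone C2 1 rose and 3 fell (Mxd1, Mxi1 and Mlx). Over all genes 17.1% were called higher and 19.9% lower in clone C1, and 17.4% and 20.1% in clone C2. The count that rose in clone C1 was 3 without WT replicate 2, 2 without dKO replicate 1, and 3 after quantile normalization or with the replicate number as a block. The count that fell in clone C2 was 1 without WT replicate 2 or 3 or dKO replicate 2, and 2 without dKO replicate 1. The medians were 0.17 and -0.01 on the log2 scale, beside -0.01 and -0.03 over all genes fitted. Mxd4, which encodes a MAX-binding repressor, was the one that rose in both clones, by 0.97 (SE 0.11, adjusted p = 3.2e-06, limma) and 0.93 (adjusted p = 5.7e-06, limma), from means of 559 and 456 to 1091 and 861 normalized reads. Mlx, a MAX-like partner protein, fell by 0.44 on the log2 scale (SE 0.10, adjusted p = 0.0035, limma) and 0.56 (adjusted p = 0.00056, limma). Max itself gave 0.09 (SE 0.08, adjusted p = 0.43, limma) and -0.02 (adjusted p = 0.85, limma).

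A list of 20 genes known as targets of MYC, mostly of nucleolar assembly, growth and metabolism, moved with the clone. In clone C1 1 rose (Odc1) and 2 fell (Ldha and Dkc1), with a median log2 difference of -0.06, where 17.1% of all genes were called higher and 19.9% lower. In clone C2 11 rose (Ncl, Npm1, Nme2, Cdk4, Nop58, Fbl, Srm, Pa2g4, Ppan, Mybbp1a and Hspd1) and none fell, also at an unadjusted p under 0.05 in limma, edgeR or DESeq2 (median 0.26, beside -0.03 over all genes fitted), against 17.4% of all genes called higher and 20.1% lower. Without WT replicate 2 of clone C2 the count was 6. The test of the difference between the clones called 8 of the 20 higher in clone C2 and 1, Odc1, lower, against 15.1% and 14.3% of all genes. Nop58, Cdk4 and Ncl are given as examples chosen after their values were seen. Nop58, a core protein of small nucleolar ribonucleoproteins, had 3074.16 to 3282.36 normalized reads in WT and 5903.19 to 5943.35 in dKO libraries of clone C2 (log2 difference 0.89, SE 0.08, adjusted p = 4.9e-07, limma), and a difference of -0.09 in clone C1 (adjusted p = 0.41, limma). Cdk4, a kinase of the G1 phase, gave 0.75 in clone C2 (SE 0.09, adjusted p = 9.1e-06, limma) and 0.11 in clone C1 (adjusted p = 0.37, limma). Ncl, which encodes nucleolin, gave 0.67 in clone C2 (SE 0.11, adjusted p = 0.00012, limma) and -0.02 in clone C1 (adjusted p = 0.93, limma).

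**Figure D3:**
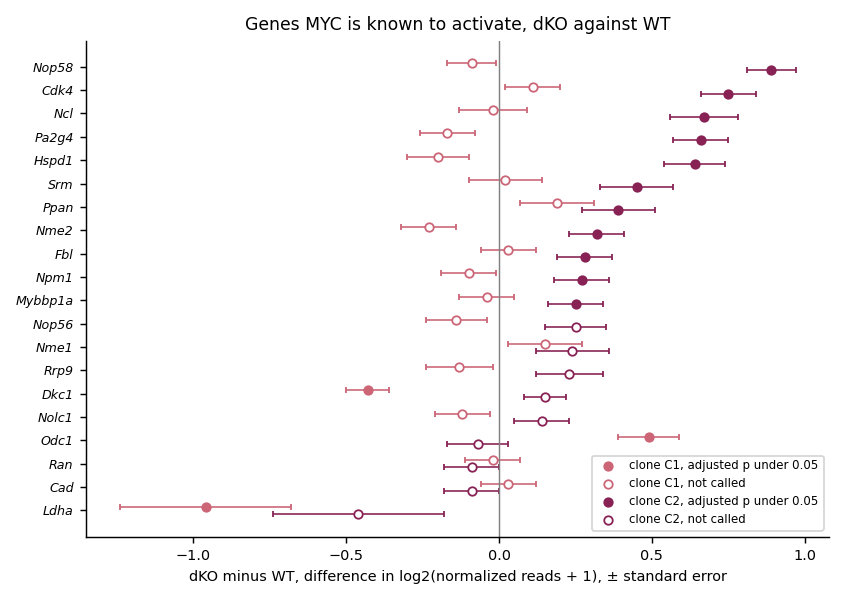
Log2 differences of dKO minus WT cells for 20 known MYC target genes in clone C1 and clone C2, with standard errors of the fit. Filled points have an adjusted p under 0.05 (limma). In clone C2 11 genes lie above 0 with a filled point and none below, and in clone C1 only Odc1 does so, with Ldha and Dkc1 filled below 0.

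Bahcc1 (chromosome 11, 120232947 to 120292296, plus strand) was near 0 in WT cells, as Cd34 was, and high in dKO cells. Its normalized reads were 9.37, 7.22 and 6.11 in WT and 754.26, 931.42 and 779.30 in dKO libraries of clone C1, 109-fold higher (log2 difference 6.60, SE 0.38). In clone C2 they were 2.99, 0 and 0 in WT and 880.87, 1072.16 and 966.42 in dKO libraries, at least 309-fold higher, and the dKO libraries of both clones overlapped. Tnrc18, the closest relative of Bahcc1, was expressed in all cells at 1618.98 or more normalized reads and rose in clone C1 by 1.47 on the log2 scale (SE 0.10, adjusted p = 1.8e-08, limma) and in clone C2 by 0.37 (adjusted p = 0.0083, limma). Its difference between the clones thus had the opposite sign to that of Bahcc1, but the value for Bahcc1 rested on WT levels near 0.

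The size of the dKO difference was not the same in the 2 clones for several of the 10 genes. The difference of differences, clone C2 minus clone C1, was above 0 and past the threshold for Cd34, Myc, Erg, Bahcc1 and Flt3, 5 of the 8 fitted genes, where 15.1% of all genes were. The genes were chosen on these values, and Cd34, Bahcc1 and Flt3 entered the fit only through dKO and dKO-LAP* libraries, so the count is a description and nothing is read from it. For Cd34 it was 3.00 on the log2 scale (SE 0.43), for Erg 2.96 (SE 0.33), for Bahcc1 2.66 (SE 0.53), for Flt3 2.04 (SE 0.50) and for Myc 0.56 (SE 0.17). Over 8 alternatives it ran from 2.04 to 4.32 for Cd34, from 2.67 to 3.04 for Erg, from 1.34 to 4.83 for Bahcc1 and from 0.43 to 2.32 for Flt3. The WT cells of the clones differed too. Erg was 6.68-fold lower in WT cells of clone C2 than of clone C1 (log2 difference -2.76). With Prom1, Cd34 and Bahcc1 it made 4 of the 8 called lower there, against 21.3% of all genes, but Cd34 and Bahcc1 lay below 10 normalized reads in every WT library and were not fitted with only these 2 groups compared, which left 2. For Flt3 and Cd34 the dKO cells of clone C2 also lay above those of clone C1 without overlap. The value for Flt3 was not called at a pseudocount of 0.1 (1.25), with edgeR (0.43) or with DESeq2 (1.44). The value for Myc was not called after quantile normalization (0.41) or without any of 6 single libraries (0.47 to 0.53), namely WT replicates 1 and 2 and dKO replicates 1 and 3 of clone C1 and replicate 3 of the WT and the dKO cells of clone C2.

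The dKO-LAP* cells of clone C1 were set against dKO and WT cells of the same clone. Of the 8 fitted genes 0 were called between dKO-LAP* and dKO cells (0 also at an unadjusted p under 0.05 in limma), against 4.46% of all genes, a count at the background share from which nothing is read. edgeR and DESeq2 each called 1, Bahcc1, and 2 at an unadjusted p under 0.05. Against WT cells 7 were called higher in dKO-LAP* cells, where 14.2% of all genes were, and this too is a description, since Cd34, Mycn, Bahcc1 and Flt3 entered the fit only through dKO and dKO-LAP* libraries. The call of Prom1 among the 7 was lost at a pseudocount of 0.1, with no filter on low values, with only the groups compared (0.27 in each) and when any 1 library but WT replicate 2 was left out (0.21 to 0.29). The calls of all genes against WT cells split as 1796 higher and 2322 lower, and as 2521 higher and 1910 lower after quantile normalization. Both comparisons share libraries with that of dKO and WT cells. Cd34 had 2860.53, 2837.30 and 3024.00 normalized reads in dKO-LAP* cells, 1.11 times the dKO mean, and each library lay above the dKO libraries. Bahcc1 had 538.38, 485.79 and 442.29, 0.595 times the dKO mean (log2 difference -0.75, SE 0.38), and each library lay below the dKO libraries. The dKO-LAP* mean of Bahcc1 was 64.6-fold above its WT mean. Bahcc1 was called lower than in dKO cells at a pseudocount of 5, in a fit of only these 2 groups, with edgeR and with DESeq2.

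Erg and Mycn likewise lay below their dKO level with LAP*, without a call. Erg had 260.05, 242.43 and 219.78 normalized reads, 0.781 times the dKO mean (log2 difference -0.36), and Mycn had 8.13, 6.45 and 4.56, 0.546 times it (-0.79). In both genes no dKO-LAP* library reached a dKO library, and all lay above the WT libraries. For values without overlap the share of all genes was 10.4% higher and 13.7% lower, beside 1 and 3 of the 8 fitted genes. Flt3 (57.90, 61.76 and 105.79 normalized reads), Myb (6983.72, 8532.17 and 7444.19), Myc (3410.09, 3473.34 and 2535.20) and Prom1 (1588.73, 1605.77 and 1539.36) overlapped the dKO libraries. The largest of their log2 differences was 0.31 (SE 0.35), for Flt3. The 20 MYC targets gave 0 calls between dKO-LAP* and dKO cells in limma and 8 higher and 0 lower at an unadjusted p under 0.05 (median 0.19, beside 0.00 over all genes), and edgeR and DESeq2 called 1 higher.

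**Figure D4:**
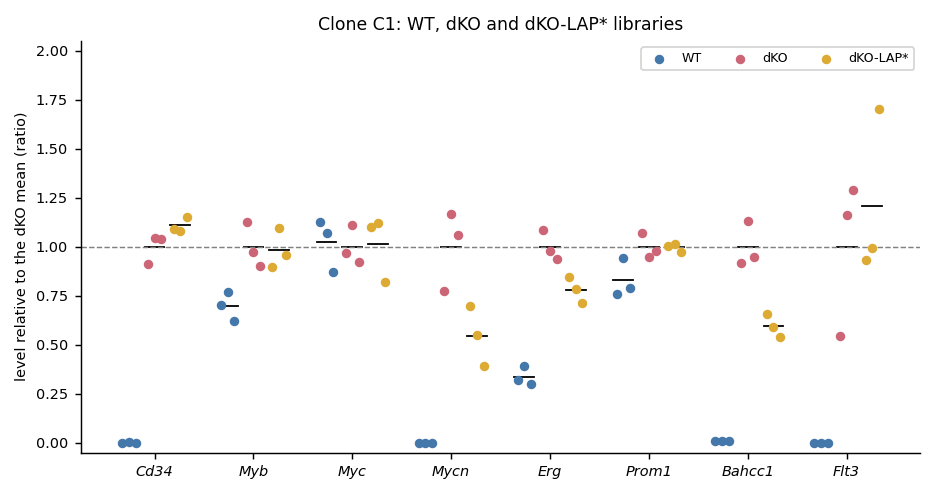
Levels of the 8 fitted genes in the 9 libraries of clone C1 relative to the mean of the dKO libraries, on a linear axis. Points are libraries of WT, dKO and dKO-LAP* cells. The dKO-LAP* libraries of Mycn, Erg and Bahcc1 lie below their dKO libraries and those of Cd34 above, while Myc, Myb, Prom1 and Flt3 overlap.

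The order of groups by level separated the genes. Cd34 ran from dKO cells of clone C2 through dKO-LAP*, dKO and WT cells of clone C1 to WT cells of clone C2, and no neighbours in this order overlapped. Erg and Bahcc1 shared the order dKO cells of clone C2, dKO, dKO-LAP* and WT cells of clone C1 and WT cells of clone C2, in which the 2 dKO groups overlapped. In Myb the dKO cells of clone C2 stood above the overlapping dKO and dKO-LAP* cells of clone C1, and both stood above the overlapping WT groups. In Myc the dKO cells of clone C2 stood alone above 4 overlapping groups. In Prom1 all groups of clone C1 stood above both groups of clone C2. Compared per kilobase of exon, Myc had the highest level of the 10 genes in every group (989 to 1421 normalized reads per kilobase) and Myb the second (608 to 1120). Next came Prom1 in WT cells (183 in clone C1 and 50.8 in clone C2) and Cd34 in dKO cells (360 and 873) and dKO-LAP* cells (399).

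Over the 15 libraries, which share clones and genotypes, the pattern of Cd34 was most like those of Bahcc1 (Pearson r 0.978), Flt3 (0.971) and Mycn (0.949) among the 10 genes, while Prom1 correlated with the others at -0.137 to 0.527. Among all other fitted genes, the closest to Cd34 were Spns3 (0.985), Tespa1 (0.984) and Hmga2 (0.984). The closest to Bahcc1 were Spns3 (0.978), Pdgfrb (0.978) and Macroh2a1 (0.975), and to Flt3 Cbfa2t3, Hmga2 and Rab38 (0.979 each). Erg was most like Il18rap (0.981), Coro2a (0.98) and Nrip1 (0.976), and Mycn most like Cdh17 (0.975), Nrgn (0.975) and Ikzf2 (0.973). Myb was most like Cdc14a (0.96), Adgrg1 (0.937) and Pank1 (0.931), Prom1 most like Plscr3 (0.986), Krt80 (0.986) and Hoxb3os (0.985), and Myc most like 9430037O13Rik (0.92), Cabin1 (0.853) and Ncln (0.845). These are descriptions of 12665 genes over few groups.

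Other genes of stem and early progenitor cells moved in both directions. Of a list of 38 such genes, 26 were fitted. Of these, 5 (Gfi1b, Hmga2, Ikzf2, Ly6a and Tal1) would not have passed the filter on WT libraries alone, so their part in the counts is a description. Gfi1b and Ly6a did reach WT cells of clone C1, with highest values of 45.1 and 164.57 normalized reads. Ly6a had a mean of 102.4 in WT and 45.02 in dKO cells of that clone. In clone C1 11 of the 26 were called higher, 8 of them outside these 5, and 4 lower (median log2 difference 0.52). In clone C2 11 were called higher, again 8 outside the 5, and 3 lower (median 0.38), beside medians of -0.01 and -0.03 over all genes. The shares of all genes called higher were 17.1% and 17.4%, and those called lower 19.9% and 20.1%. The genes called higher in both clones numbered 7, where 5.69% of all genes were, namely Kit, Gata2, Angpt1, Adgrg1 and Sox4 and, fixed by the filter, Hmga2 and Ikzf2. None of the 26 fell in both. The 12 genes that did not pass the filter included Procr, Slamf1 and Tek, classical markers of the stem cell surface. The difference between the clones was called for 14 of the 26, 8 higher and 6 lower in clone C2, against 29.4% of all genes in either direction and 14.3% lower. Between dKO-LAP* and dKO cells 1 of the 26 was called higher, Lin28b, and 2 were called lower, among them Ikzf2, beside 4.46% of all genes called in either direction. These counts moved with the processing. The count called lower was 1 to 6 over 8 alternatives (6 with only the groups compared, 3 with edgeR and 4 with DESeq2) and 1 without dKO replicate 2 or 3 or dKO-LAP* replicate 1 or 2, and the count called higher was 2 after quantile normalization or with DESeq2 and 3 without dKO-LAP* replicate 1. Lin28b, an RNA-binding protein of fetal blood progenitors, rose from 10.19 to 22.06 normalized reads in dKO libraries to 156.44 to 217.54 in dKO-LAP* libraries (log2 difference 3.58, SE 0.26, adjusted p = 8.3e-07, limma).

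Hmga2, a chromatin architectural protein of fetal stem cells, was listed at 0 in all WT libraries. It had 84.73 to 160.82 normalized reads in dKO libraries of clone C1 (at least 29.5-fold higher) and 178.86 to 269.23 in those of clone C2 (at least 73.9-fold higher). Ikzf2, which encodes the zinc finger factor Helios, was also at 0 in WT libraries and at least 27.1-fold and 47.9-fold higher in dKO cells. Both passed the filter only through dKO and dKO-LAP* libraries, so they had to differ from WT cells and no p is given for these differences. In dKO-LAP* cells Ikzf2 fell by 1.55 on the log2 scale from the dKO level (adjusted p = 0.0032, limma). Adgrg1, an adhesion receptor of stem cells, had 14.72, 31.57 and 6.11 normalized reads in WT libraries of clone C1 and 362.41, 347.19 and 315.07 in dKO libraries. It rose 19.6-fold in clone C1 (log2 difference 4.47, SE 0.37, adjusted p = 1.6e-07, limma), with log2 differences of 5.02 without WT replicate 2 and 3.92 without WT replicate 3. The rise in clone C2 was 17.6-fold (4.13, adjusted p = 5e-07, limma).

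**Figure D5:**
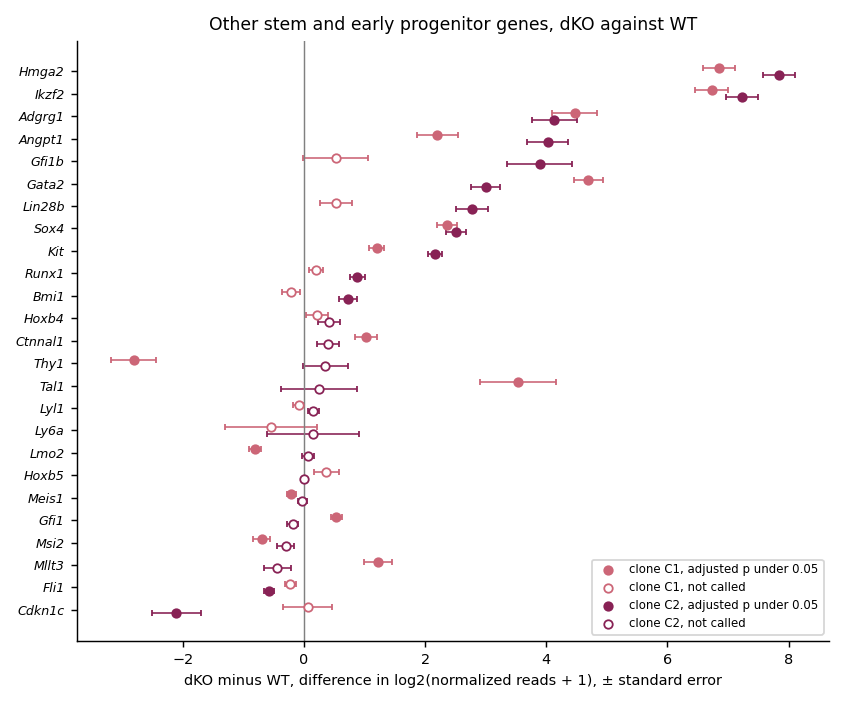
Log2 differences of dKO minus WT cells for 25 of the 26 fitted genes of the stem and early progenitor list in clone C1 and clone C2, with standard errors of the fit. Filled points have an adjusted p under 0.05 (limma). Hmga2, Ikzf2 and Adgrg1 lie highest in the mean of both clones.

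Markers of other blood lineages also differed between the groups, among them those of mast cells, which carry CD34. The summed level of 5 mast cell and basophil markers was 98.8 to 134 normalized reads in WT, 2642 to 3042 in dKO and 887 to 1135 in dKO-LAP* libraries of clone C1, and 103 to 129 in WT and 536 to 778 in dKO libraries of clone C2. Between 3 and 4 of the 5 were above 3 reads in each group, and Fcer1a, a defining marker, had at most 1.05 normalized reads anywhere. Of the 4 fitted, Cpa3 made up most of the dKO sum of clone C2 (mean 568) but passed the filter only through dKO and dKO-LAP* libraries, so its difference is a description. Hdc was called higher in both clones, Mcpt8 was higher in clone C1 and not called in clone C2, and Ms4a2 was called higher in clone C1 and fell from a mean of 61.8 to 8.10 normalized reads in clone C2. The sum of 4 eosinophil markers was 28.1 to 138 in WT, 7498 to 15110 in dKO and 679 to 1674 in dKO-LAP* libraries of clone C1, and 4.98 to 21.1 in WT and 196 to 310 in dKO libraries of clone C2. Prg2, Epx and Ear1 passed the filter only through dKO and dKO-LAP* libraries, so nothing is read from their calls, and Ear2 was called higher in clone C1 and lower in clone C2. Their part in the levels of Cd34 and the other genes was not tested. The sum of the 10 myeloid progenitor markers was 106800 to 112900 in WT, 146700 to 208800 in dKO and 172400 to 209600 in dKO-LAP* libraries, and its part was not tested either. The sum of 5 megakaryocyte markers was 73.6 to 125 normalized reads in WT, 202 to 299 in dKO and 59.9 to 82.3 in dKO-LAP* libraries of clone C1, and 19.9 to 51.4 in WT and 111 to 191 in dKO libraries of clone C2. Above 3 reads were 3 of the 5 in WT, 4 in dKO and 4 in dKO-LAP* cells of clone C1, and 2 in WT and 1 in dKO cells of clone C2. The higher sum in dKO cells lay in Itga2b alone, with means of 2.74 and 213 in WT and dKO cells of clone C1 and 15.8 and 157 in clone C2. Itga2b would not have passed the filter on WT libraries alone. Of the other 2 fitted, Vwf fell in both clones and Pf4 fell in clone C1 and was not called in clone C2, and the median log2 difference was -1.51 and -0.20. The sum of 7 lymphoid markers was 38.7 to 56.2 in WT, at most 2.1 in dKO and 4.06 to 8.21 in dKO-LAP* libraries of clone C1, and at most 2.75 in both groups of clone C2, with Rag1 at 0 throughout. The part of both lists in the levels of the 10 genes was not tested. Erythroid markers summed to at most 23.8 normalized reads in any library.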

How the data were processed

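RNA of 15 libraries was sequenced by the authors as stranded paired-end libraries, and aligned to mm10 with STAR 2.5.3a, counted per gene with HTSeq 0.10.0 and normalized with DESeq2 1.26.0 (versions per the submitters' processing notes). The annotation and the strand setting of the counting are not given in the sources used here. The deposited signal is thus a read count per gene after division by the size factor of its library (0.747 to 1.13). Dividing each column by its smallest step gave whole reads (to 0.1) for 100.0% of its nonzero values, so reads could be recovered. Of 53384 rows, 5 count reads outside genes, held 22.4% to 26.2% of the reads and were left out. 15 columns matched a sample and 3 were not matched and not used here.

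limma 3.58.1 (R 4.3.3) was run on log2(normalized reads + 1) of all 15 libraries, with a mean for each of the 5 groups and a trended variance prior. The filter asked for 10 or more normalized reads in 3 or more libraries and left 12673 of the 24520 genes with any read. Genes were called at 0.05 after Benjamini-Hochberg adjustment over these. A fold change on this scale understates the change of low genes, so folds of means are given, and against a group with no library above 3 reads they are bounds. The study's labels C1 and C2 name the clones, and LAPS in the labels is written dKO-LAP*. Alternatives were pseudocounts of 0.1 and 5, no filter, quantile normalization, fits of only the groups compared, a replicate block, edgeR 4.0.16 and DESeq2 1.42.0 on the recovered reads, and leaving out each library. On the recovered reads edgeR called 4679 genes in clone C1 and 4748 in clone C2 for dKO against WT cells, and DESeq2 4544 and 4632, beside 4686 and 4760 with limma. The steps were tested on simulated data. Tables and plots used Python 3.11.15, pandas 2.3.3, numpy 2.4.6 and matplotlib 3.10.9. Positions are from GENCODE vM21, whose exon lengths were used for values per kilobase.

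The 10 genes and the lists were chosen with earlier results of these data known. Counts over the lists and p-values of the genes named from them thus describe these libraries and are not independent evidence. Genes outside the 10 were named as the 3 most like each gene, the up to 3 per list with calls of the same sign in both clones and the largest mean difference, and genes with a role beside 1 of the 10. Values of some genes of the lists are not reported here.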

Additional observations from a re-analysis of the deposited data

Results flagged for a closer look

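The difference of dKO minus WT cells, on the scale of log2 normalized reads plus 1, was not the same in both clones for several of the genes named above. As clone C2 minus clone C1 the difference was 3.00 for Cd34, 2.96 for Erg, 2.66 for Bahcc1, 2.04 for Flt3 and 0.56 for Myc. These values are a description without p-values, because the genes were chosen with results of these libraries known. Cd34, Bahcc1 and Flt3 lay near 0 in WT cells, and Flt3 and Myc lost their call under some alternatives. Among the other named genes the interaction term of limma passed an adjusted p of 0.05 for several, not all of which are listed here. Those listed above 0 were Kit (0.96, SE 0.16, adjusted p = 0.00038), Nop58 (0.98, SE 0.11, adjusted p = 1.3e-05), Cdk4 (0.64, SE 0.13, adjusted p = 0.0013), Ncl (0.69, SE 0.15, adjusted p = 0.0025) and Lin28b (2.24, SE 0.36, adjusted p = 0.00025). For Pdgfrb the difference was 2.36 (SE 0.37), given without a p-value because the gene would not have passed the filter on WT libraries alone. Those listed below 0 were Tnrc18 (-1.10, SE 0.14, adjusted p = 3.7e-05), Ets1 (-1.07, SE 0.17, adjusted p = 0.00024) and Odc1 (-0.56, SE 0.14, adjusted p = 0.0068). Of all genes fitted, 29.4% passed this test. Each clone is 1 line, so the clone, its mouse and its dKO subclone cannot be told apart.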

How the results depend on the processing

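No called direction was reversed under any alternative run. Of the counts of all genes called and of the 10 genes called, 260 values kept their side of the threshold or stayed within 1.5 times the reported count, 4 rose past it and 6 fell short of it. The 4 were all 1 gene, Bahcc1, in place of 0 called lower with LAP* than in dKO cells, at a pseudocount of 5, with only the groups compared, with edgeR and with DESeq2. Of the others, the 565 genes called between dKO-LAP* and dKO cells became 266 to 479 when 1 library was left out, with 266 to 351 without any dKO library or without dKO-LAP* replicate 2 or 3, and 2 in place of 4 of the 10 genes were called lower in WT cells of clone C2 than of clone C1 with only these groups compared, because Cd34 and Bahcc1 did not pass the filter of that fit. Of the remaining values checked, the list counts among them, 3086 stayed the same, 75 moved, 51 became stronger and 107 became weaker. The replicate numbers in the labels did not pair the samples (correlations of deviations from -0.174 to 0.297 over 12 pairs). With the number as a replicate block the genes called went from 4686 to 4557 for dKO against WT cells in clone C1, from 4760 to 4619 in clone C2, from 565 to 488 for dKO-LAP* against dKO, from 4118 to 3994 for dKO-LAP* against WT, from 3720 to 3583 for the difference between clones and from 5192 to 5028 for WT cells of clone C2 against clone C1. It left the counts among the 10 genes at 7, 8, 0, 7, 5 and 4 in the same order. Levels under 3 reads per library, as for Hlf and Mecom, limit what these libraries can show.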
